A study of Homo sapiens with 6 samples.

Results

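PMP22, its paralogs EMP1, EMP2 and EMP3, the caveolins CAV1 and CAV2 and the flotillins FLOT1 and FLOT2 were examined in breast epithelial cells before and after selection for resistance to fluvastatin. Members were chosen by gene symbol, and all 8 were found among the 81496 gene symbols of the table, with 11 of its 135750 transcript probe sets. Where a gene had more than 1 probe set, the one with the highest mean over 5 arrays was taken as its main value, and the others are given beside it. PMP22 was picked with its difference between the lines already known, as the probe set with the fourth largest difference downward among those tested, so its values are given as a description and without a test.

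MCF10.AT1 is a human breast epithelial line, the HRAS-transformed preneoplastic step of the MCF10A panel, and its cells were labelled untreated and fluvastatin sensitive. MCF10.AT1-R is the fluvastatin resistant line derived from it by exposure to stepwise rising doses of 1 µM, 5 µM and up to 20 µM. It is 1 selected line, both lines were grown in MCF10.AT1 medium, and whether the drug was present when RNA was taken is not given in the sources used here. Total RNA of 3 samples per line was labelled and hybridized to Clariom D arrays, with 1 array per sample. The deposited values are log2 expression made by RMA, so a difference of 1 is a doubling of signal. The arrays of MCF10.AT1 are named A01, A02 and A03 and those of MCF10.AT1-R B02, B03 and B04, and anything else that the letter in these names may stand for cannot be told apart from the line.

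PMP22 encodes a small membrane glycoprotein with 4 passes through the membrane. It is best known from the compact myelin of Schwann cells, where a changed gene dose causes inherited neuropathy, but it is also made by epithelia, at cell contacts, and was isolated early on as a growth arrest-specific gene (GAS3). EMP1, EMP2 and EMP3, the epithelial membrane proteins, share its fold and act in adhesion, growth and membrane traffic. CAV1 and CAV2 form the coat of caveolae, flask-shaped pits of the plasma membrane that need cholesterol, the end product of the pathway that statins block. FLOT1 and FLOT2 are scaffold proteins of flat, cholesterol-rich membrane domains without caveolae.

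Array A03 stood apart from all others. Its correlation with each of the other 5 arrays lay between 0.779 and 0.795 over transcript probe sets, against 0.967 to 0.977 among those 5. The main probe sets of all 8 genes read lower on A03 than on any other array, as did 20.2% of all tested probe sets. A03 was therefore not used when the lines were compared, which the study's methods also do, and it is given apart. This left 2 arrays of MCF10.AT1 against 3 of MCF10.AT1-R. The level of background was taken as the 95th percentile of 612 negative control probe sets, which lay between 2.88 and 3.15 on the 6 arrays. On the 5 arrays used, the main probe sets of all 8 genes lay above that level.

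PMP22 was far lower in the resistant line. On the log2 scale it read 7.47 on A01 and 7.33 on A02, and 4.59 on B02, 3.82 on B03 and 4.95 on B04. All 3 resistant arrays lay below both parental arrays, with a gap of 2.38 between the nearest of them. MCF10.AT1 averaged 7.40 ± 0.10 (SD, n = 2) and the resistant line 4.45 ± 0.58 (SD, n = 3). This is a log2 difference of -2.95, or 7.72-fold less signal. The resistant arrays were also less alike than the parental ones. They spanned 1.14, against 0.14 in MCF10.AT1, and B03 was the lowest of them. Even so, PMP22 stayed above background on every resistant array, by 0.86 at the least. Only 3 of the 51457 tested probe sets had a larger difference downward. In bulk RNA, fewer cells with PMP22 and less PMP22 RNA per cell cannot be told apart. On A03, labelled MCF10.AT1, PMP22 read 2.09, below that array's own background and below the resistant arrays, so the separation of the lines holds without A03 and not with it. With A03 counted as a parental array the log2 difference was -1.18.

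**Figure D1:**
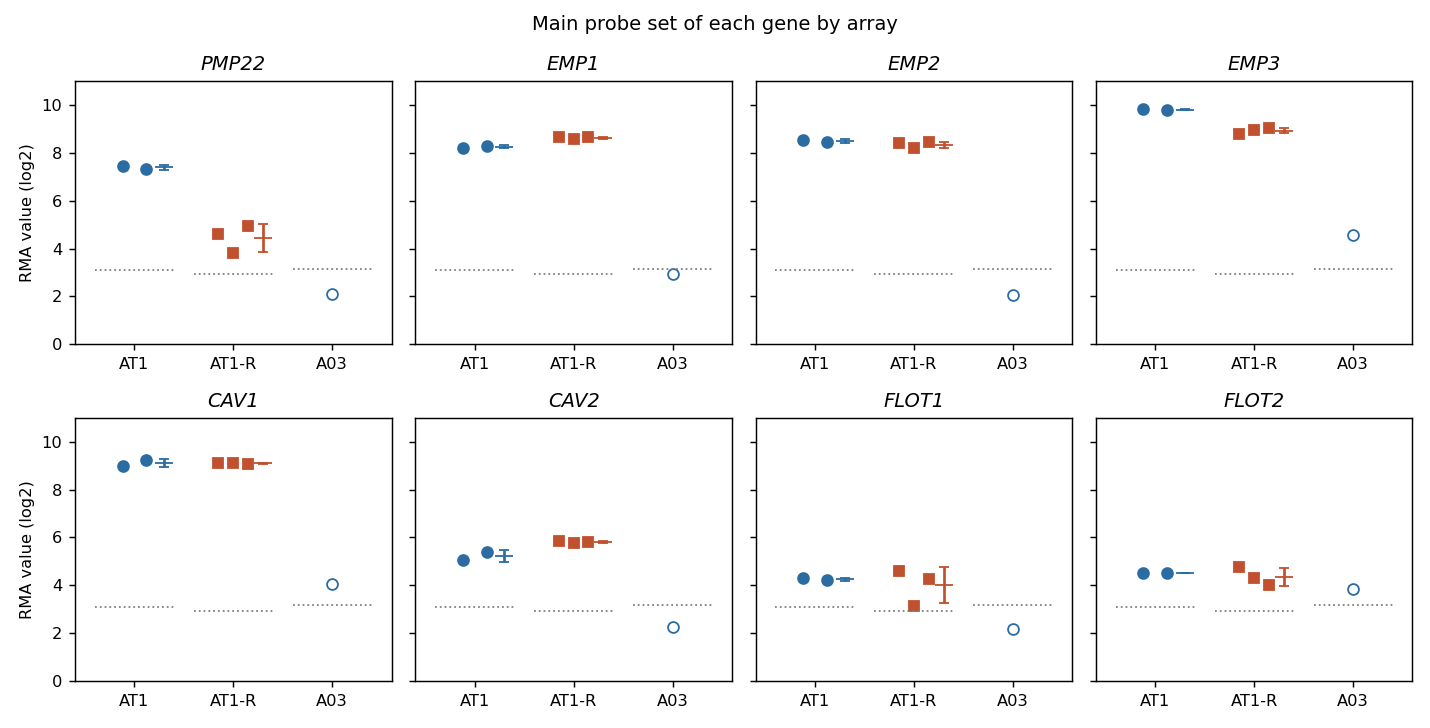
RMA values (log2) of the main probe set of each gene. Filled circles are the MCF10.AT1 arrays A01 and A02, squares the MCF10.AT1-R arrays B02, B03 and B04 and open circles A03. Dashes with bars give mean and SD without A03, and dotted lines the mean 95th percentile of the negative controls. The means of PMP22 are 7.40 and 4.45, those of EMP3 9.81 and 8.93, and A03 is the lowest point in each of the 8 panels.

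RefSeq (GRCh38.p14) lists 3 start sites for PMP22, numbered here from the most upstream. The array gives 1 value for the gene, so the starts were not measured separately. The 250 bases before each start are shown here because PMP22 had by far the largest difference of the 8 genes. Those before the most upstream start of EMP3, the gene with the next largest difference downward, are shown too. All are written 5′ to 3′ along the gene, and capitals mark matches to the motifs named after them.
PMP22, start 1, chr17:15265327-15265576 (minus strand): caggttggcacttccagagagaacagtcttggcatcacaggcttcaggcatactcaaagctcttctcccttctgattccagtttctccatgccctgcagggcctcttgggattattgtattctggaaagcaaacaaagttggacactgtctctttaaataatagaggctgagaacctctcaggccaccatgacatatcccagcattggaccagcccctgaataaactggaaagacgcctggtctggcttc
PMP22, start 2, chr17:15262553-15262802 (minus strand): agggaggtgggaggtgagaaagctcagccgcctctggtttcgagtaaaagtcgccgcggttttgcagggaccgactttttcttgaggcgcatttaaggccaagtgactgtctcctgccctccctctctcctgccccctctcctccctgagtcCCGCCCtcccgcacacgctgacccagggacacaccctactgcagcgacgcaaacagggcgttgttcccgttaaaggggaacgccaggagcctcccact
PMP22, start 3, chr17:15260821-15261070 (minus strand): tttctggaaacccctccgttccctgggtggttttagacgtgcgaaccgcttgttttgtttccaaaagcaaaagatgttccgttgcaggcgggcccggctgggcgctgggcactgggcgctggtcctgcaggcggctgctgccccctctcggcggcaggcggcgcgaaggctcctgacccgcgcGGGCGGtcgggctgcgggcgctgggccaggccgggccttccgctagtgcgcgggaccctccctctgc
EMP3, start 1, chr19:48325302-48325551 (plus strand): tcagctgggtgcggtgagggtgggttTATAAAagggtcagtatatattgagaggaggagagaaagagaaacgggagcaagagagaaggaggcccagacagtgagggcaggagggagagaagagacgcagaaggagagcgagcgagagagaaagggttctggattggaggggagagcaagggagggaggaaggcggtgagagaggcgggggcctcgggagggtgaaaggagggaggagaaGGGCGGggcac

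The motifs were the GC box bound by SP1-like factors (GGGCGG, both strands), the TATA box (TATAAA, strand of the gene), the core of the TEAD site (GGAATG, both strands) and a form of the sterol response element bound by SREBP (TCACNCCAC, both strands). None of the motifs overlapped another in these 4 windows. Start 1 of PMP22 held none of them, and its G and C content was 48.8%. Start 2 and start 3 held 1 GC box each, with G and C contents of 61.2% and 69.6%. The EMP3 window held 1 TATA box match, near its upstream end and far from the start, and 1 GC box, close to the start. Across the 14 windows of the 8 genes, 12 held a GC box, 1 a TATA box and none a TEAD or SREBP match. Some windows belong to the same gene, and those of start 1 and start 2 of CAV1 overlap, so the 14 are not separate counts. Of all 35116 windows of this length, 42.6% held a GC box, 6.8% a TATA box, 11.9% a TEAD match and 0.883% an SREBP match. These are matches of letters and no measure of binding.

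The 3 EMP genes did not share the size of the PMP22 difference, nor a direction. EMP3, a paralog studied in glioma and breast tumors, read 9.83 on A01 and 9.78 on A02, and 8.80 on B02, 8.94 on B03 and 9.03 on B04. The resistant arrays again lay below both parental arrays, and the spread within each line was small. The means were 9.81 ± 0.03 (SD, n = 2) and, in the resistant line, 8.93 ± 0.12 (SD, n = 3), a log2 difference of -0.88 (standard error 0.31, 95% interval -1.49 to -0.27). It did not pass an FDR of 5% in limma (adjusted p = 0.199), which after the filter used 1 common SD of 0.34 for every probe set, well over the SD of 0.10 within the lines for EMP3. When limma let the variance follow the expression level, EMP3 passed (adjusted p = 7.49e-17). So small a value from 2 arrays against 3 rests on a variance taken from probe sets of similar level, and it depended on the filter. With a filter on low expression only, the same option in limma gave an adjusted p of 8.41e-05. Without that option and without a filter, limma gave 0.275.

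EMP1, which is induced in squamous differentiation, leaned the other way. It read 8.22 on A01 and 8.30 on A02, and 8.64 on B02, 8.56 on B03 and 8.66 on B04. All resistant arrays were above the parental ones, although by little. Its log2 difference was 0.36 (standard error 0.31, 95% interval -0.25 to 0.97, limma adjusted p = 0.828), and with the variance following the level the adjusted p was 0.0897. EMP2, which regulates integrin traffic to the cell surface, read 8.55 on A01 and 8.44 on A02, and 8.39 on B02, 8.19 on B03 and 8.43 on B04. The gap between the lines was 0.012. EMP2 varied too little to pass the filter, and in limma without a filter its log2 difference was -0.16 (95% interval -0.59 to 0.27, adjusted p = 0.915), and -0.10 without A01 or -0.086 without B03.

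The caveolins, whose genes are neighbours on chromosome 7 in RefSeq, gave different values. CAV1, the caveolin without which caveolae do not form in epithelia, read 8.98 on A01 and 9.21 on A02, and 9.11 on B02, 9.12 on B03 and 9.08 on B04. The resistant arrays fell between the parental arrays. CAV1 did not pass the filter either, and its log2 difference without a filter was 0.01, with a 95% interval from -0.42 to 0.43 (limma adjusted p = 0.997). CAV2, which joins CAV1 in hetero-oligomers and depends on it to reach the membrane, read 5.06 on A01 and 5.40 on A02, and 5.84 on B02, 5.76 on B03 and 5.81 on B04. Every resistant array was above both parental arrays, and the resistant arrays were closer together than the parental ones (SD of 0.04 against 0.24). Its log2 difference of 0.57 (standard error 0.31, 95% interval -0.04 to 1.18) did not pass in limma (adjusted p = 0.659), nor with the variance following the level (adjusted p = 0.291).

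The flotillins lay closer to background and parental and resistant arrays overlapped for both main probe sets. The main probe set of FLOT1 read 4.28 on A01 and 4.20 on A02, and 4.599 on B02, 3.15 on B03 and 4.27 on B04. B03 alone was low. Its log2 difference was -0.24 (95% interval -0.85 to 0.37, limma adjusted p = 0.857), and 0.19 without B03. The main probe set of FLOT2 read 4.51 on both A01 and A02, and 4.76 on B02, 4.30 on B03 and 3.997 on B04. Its log2 difference was -0.16 (95% interval -0.77 to 0.45, limma adjusted p = 0.903), and 0.02 without B04. The other 3 probe sets of the flotillins differed by -0.29, -0.27 and -0.15. The second probe set of FLOT1 was within background on all 5 arrays, and the third of FLOT2 on all but 1.

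**Figure D2:**
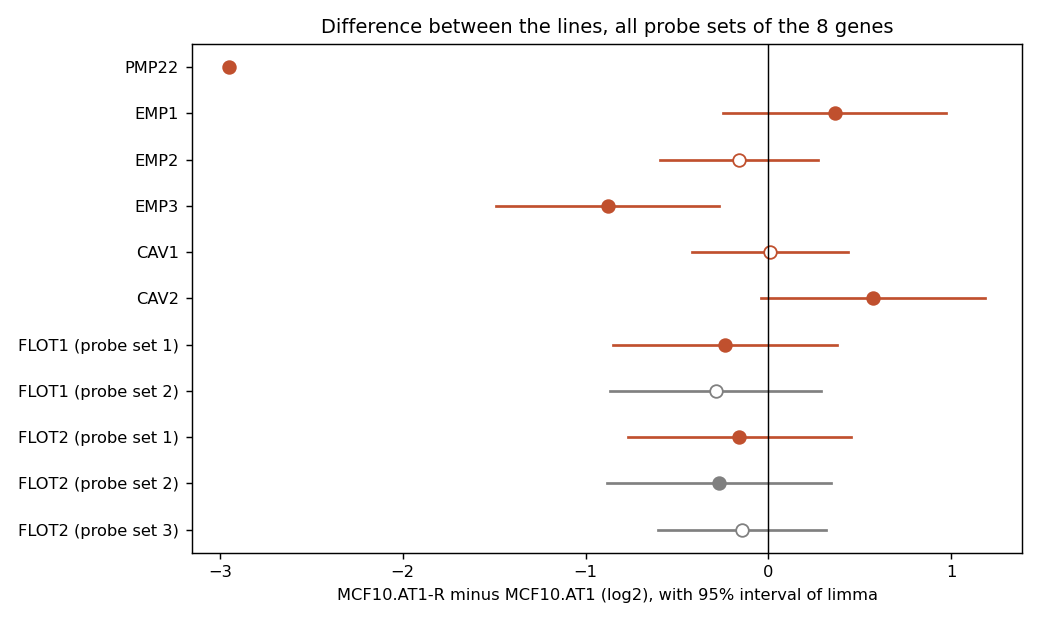
Log2 difference between MCF10.AT1-R and MCF10.AT1 for all 11 probe sets, with the 95% interval of limma. Red marks the main probe set of a gene, grey the others, and open circles the probe sets that did not pass the filter. PMP22, at -2.95, is drawn without an interval since it was chosen for this difference. The interval of EMP3 (-1.49 to -0.27) lies below 0, and those of all the other probe sets drawn with one include 0.

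Of the 7 genes other than PMP22, 5 passed the filter on low and invariant probe sets, and none of these passed an FDR of 5% in limma, where 1.2% of the 51457 tested probe sets did. At an unadjusted p under 0.05 there was 1, EMP3, against 8.26% of tested probe sets. With the variance following the level 1 of the 5 passed, again EMP3, against 2.68% of tested probe sets (1.69% higher and 0.981% lower in MCF10.AT1-R). Parental and resistant arrays were fully separate for 3 of the 5, with EMP1 and CAV2 higher and EMP3 lower, against 26.7% of tested probe sets (12.9% higher and 13.8% lower). With 1 common SD for all tested probe sets, a call in the first fit depended only on the size of the log2 difference. The smallest that passed anywhere on the array was 1.07, so differences of the size seen in EMP1, EMP3 and CAV2 were below what it called. On the same arrays, the fit with the variance following the level called EMP3 at -0.88.

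Lists of relatives and partners were compared in the same way. Of all tested probe sets, 1.2% passed an FDR of 5%, and 2.68% did with the variance following the level. An unadjusted p under 0.05 was found for 8.26%. The first held 10 proteins of the wider PMP22 and claudin family that are not claudins. Of these, 7 were tested and none passed an FDR of 5%, with 2 at an unadjusted p under 0.05. PERP, a p53 target of desmosomes and the closest to the threshold, read 8.65 on A01 and 8.73 on A02, and 9.76 on B02, 9.78 on B03 and 9.72 on B04. All resistant arrays were higher, and replicates were tight. Its log2 difference was 1.06 (standard error 0.31, limma adjusted p = 0.0525), and it passed with the variance following the level. GSG1, a germ cell protein, had the largest difference downward of the list (-0.70, limma adjusted p = 0.46). The median over the list was 0.05, and -0.02 over all tested gene symbols.

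The list of the caveola coat and neck held CAV3, the 4 cavins, the EHD ATPases and the PACSIN proteins. Of its 12 genes 9 were tested, and none passed an FDR of 5% in limma with or without the trend option. Of all tested probe sets, 2.68% passed with it and 1.2% without it. In the list 1 gene had an unadjusted p under 0.05, against 8.26% of tested probe sets. That was CAVIN2 (SDPR in the file), a cavin that shapes caveolae, at 5.09 on A01 and 5.29 on A02, and 4.54 on B02, 4.01 on B03 and 4.74 on B04. Its arrays did not overlap and its log2 difference was -0.76 (limma adjusted p = 0.368). EHD4, a membrane-shaping ATPase, had the largest difference upward among the tested genes (0.40, limma adjusted p = 0.808). CAVIN1 (PTRF), the cavin required for caveolae, differed by 0.34 (limma adjusted p = 0.834), and EHD2, which holds caveolae at the surface, by 0.04 without a filter. The median of the list was 0.01.

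Relatives of the flotillins with the same SPFH domain are the stomatins, prohibitins and erlins. Of these 9 genes 6 were tested, and none passed an FDR of 5% in limma or an unadjusted p under 0.05. The shares over all tested probe sets were 1.2% and 8.26%. The median was -0.18, and the differences of 7 of the 9 were below 0, with STOML3 within background on all 5 arrays. STOML2, a mitochondrial stomatin, read 9.58 on both parental arrays A01 and A02, and 9.13 on B02, 9.10 on B03 and 9.19 on B04. Its arrays were tightly grouped and separate. Its log2 difference was -0.44 (limma adjusted p = 0.789), and STOML2 was the 1 gene of the list that passed with the variance following the level. STOML1, a late endosomal stomatin, differed by 0.03. Among 10 MARVEL domain proteins found in or near membrane rafts, 4 were tested. None passed an FDR of 5%, against 1.2% of tested probe sets, and 1 had an unadjusted p under 0.05, against 8.26%. CMTM6, a stabiliser of PD-L1 at the cell surface, was that gene, with a log2 difference of 0.63 (limma adjusted p = 0.569), and MAL, a raft protein of apical transport, had the largest difference downward (-0.26, limma adjusted p = 0.847) but was above background on only 1 of the 5 arrays. The median of this list was 0.08.

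**Figure D3:**
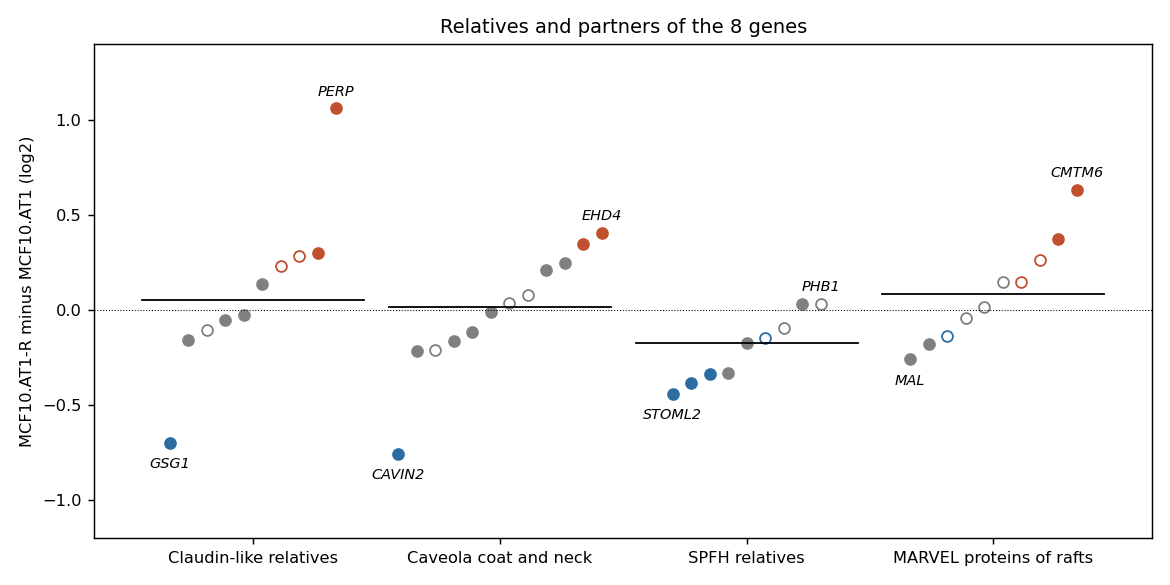
Log2 difference between MCF10.AT1-R and MCF10.AT1 for each gene of the 4 lists. Red and blue mark genes whose resistant arrays all lay above or all lay below the parental arrays, grey those that overlap, open circles those that did not pass the filter, and bars the list medians (0.05, 0.01, -0.18 and 0.08). PERP, at 1.06, lies farthest from 0.

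On A03 the 8 genes lost much of their spread in level. EMP3 (4.55), CAV1 (4.07) and FLOT2 (3.83) were the highest there. EMP1 read 2.95, CAV2 2.27, FLOT1 2.19 and EMP2 2.05, all within that array's background. EMP1, EMP2 and CAV1, which differed little between the lines, were thus also far lower on A03.

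Markers were looked up to see what cells the arrays hold. All 10 markers of basal breast epithelium were above background on all 5 arrays. Their summed log2 values were 69.1 to 70.0 in MCF10.AT1 and 84.5 to 85.2 in MCF10.AT1-R. Of 9 tested, 6 were higher in MCF10.AT1-R past an FDR of 5% in limma, where 0.758% of tested probe sets were higher and 0.447% lower (among them KRT17, KRT14, TP63, KRT5 and CDH1, with log2 changes of 4.08, 2.37, 1.74, 1.71 and 1.30). ITGB4, EPCAM, ITGA6 and EGFR differed by 0.93, 0.78, 0.34 and 0.08. The differences of all 10 markers were above 0, opposite in direction to that of PMP22, and their part in the PMP22 difference was not tested.

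Markers of Schwann cells, in which PMP22 is a major myelin protein, were measured too. None of 5 tested Schwann genes passed an FDR of 5% or an unadjusted p under 0.05 in limma, against 1.2% and 8.26% of tested probe sets. The summed level of the 9 was 30.2 to 30.9 in MCF10.AT1 and 29.7 to 31.3 in MCF10.AT1-R. EGR2, a transcription factor of myelination, and PMP2 lay within background on all 5 arrays, while SOX10, PRX, MAG and MBP lay above it. The largest differences were 0.39 for MBP and -0.32 for MAG. The 8 fibroblast markers summed to 38.1 to 38.7 and to 36.8 to 37.9. DCN, a matrix proteoglycan, fell by 2.15 (limma adjusted p = 3.88e-09), to within background on B03, and FAP, a surface protease, rose by 1.18 (limma adjusted p = 0.0175). COL1A1, COL1A2 and COL3A1 lay above background on all 5 arrays, with differences of 0.15, 0.13 and -0.16 without a filter. PDGFRB and LUM lay within background. The 8 endothelial markers summed to 25.5 to 27.3 and to 24.3 to 25.4. PECAM1 fell by 1.12 (limma adjusted p = 0.0307). EMCN differed by 0.34 but was above background on only 1 of the 5 arrays. VWF, CLDN5 and ESAM lay above background on all 5 arrays, and KDR and TEK lay within it. The 8 markers of cornifying keratinocytes summed to 23.1 to 23.5 and to 25.3 to 27.4. KRT1 and CDSN rose by 1.10 (limma adjusted p = 0.0366) and 1.14 (limma adjusted p = 0.0269), and FLG and FLG2 lay within background. These calls in other cell types depended on the setting. PECAM1 was not called without A01, A02, B02 or B03, without a filter, with a filter on low expression only, with the background floor or with A03 added back. Neither KRT1 nor CDSN was called without A01, A02, B02 or B04, without a filter, with a filter on low expression only or with A03 added back, and their list held 1 call without B03 or with the floor. The fibroblast list held 1 call in place of 2 without A01, A02 or B04, without a filter and with a filter on low expression only, and 0 with A03 added back. The part of other cell types in the differences of the 8 genes was not tested.

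The genes whose values came closest to those of PMP22 were sought by the root mean square difference over the 5 arrays, after each probe set had been centred on its own mean. AKR1C1, a steroid-metabolising aldo-keto reductase, was closest, with a difference of 0.15 on the log2 scale. It read 7.997 on A01 and 8.13 on A02, and 5.20 on B02, 4.68 on B03 and 5.42 on B04. Like PMP22 it was lowest on B03 and highest of the resistant arrays on B04. SRGN, the proteoglycan of secretory granules, followed at 0.28, with 6.34 and 6.22 on A01 and A02 and 4.22, 2.90 and 4.08 on B02, B03 and B04, of which B03 was within background. The next were LOC100506844 (0.28), AKR1C2 (0.29) and AKR1C3 (0.32). The reductases have near-identical sequences, and their probe sets may not be separate measurements. LOC100506844 read 7.24 on A03, above A01 and A02, while the other 4 of these genes read far lower there. The order rests on 5 arrays of 2 lines and on a difference by which PMP22 was chosen, so it is a description only.

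**Figure D4:**
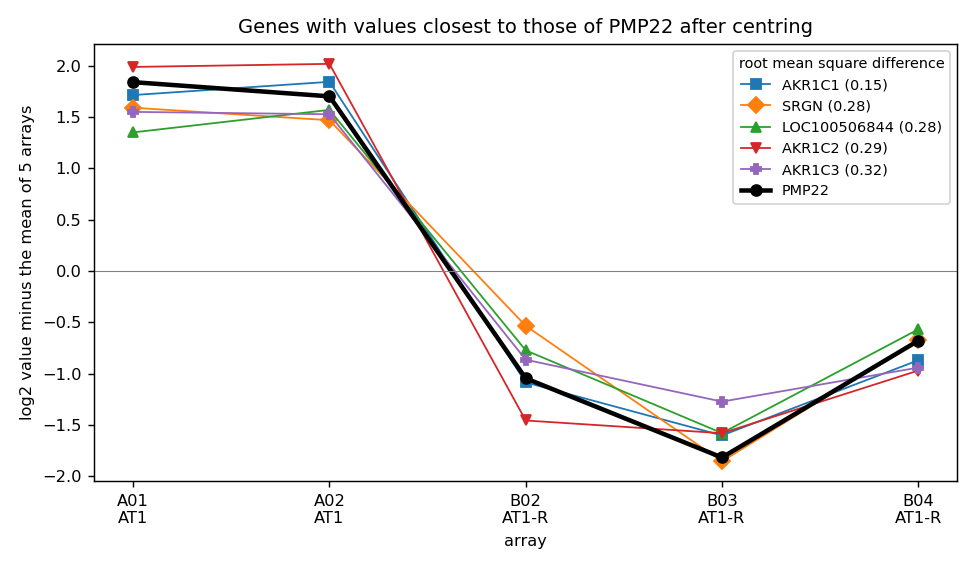
Values of PMP22 and of the 5 genes closest to it on the arrays of MCF10.AT1 (A01, A02) and MCF10.AT1-R (B02, B03, B04), as log2 minus the mean of each gene over the 5 arrays. The legend gives the root mean square difference from PMP22. All 6 genes are high on both parental arrays and low on the 3 resistant arrays, and PMP22 and AKR1C1 nearly coincide.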

How the data were processed

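Total RNA of MCF10.AT1 and MCF10.AT1-R, 3 samples each, was profiled on Clariom D arrays. The authors deposited log2 expression values made by RMA with the Bioconductor packages affy and oligo, 1 value per probe set and array. Package versions, the genome build and the annotation are not given in the sources used here. RMA normalizes all arrays together, A03 included, and compresses low signals, which can understate differences near background. The names of the arrays give the line, as the study's principal component plot shows, and no replicate number.

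The 2995 control probe sets were left out of the comparison. A probe set was tested if its mean on these 5 arrays exceeded the median (1.88) and its SD exceeded the lowest 25% (0.18), whichever line was higher, since the study removed low and invariant genes without naming its limits in the text used here. The 51457 that remained entered lmFit and eBayes (limma 3.58.1, R 4.3.3), with Benjamini-Hochberg adjustment over all of them and FDR 5%. Standard errors and 95% intervals come from this fit. Probe sets outside the filter were looked up in limma without a filter. The step was tested on simulated data, where its share of false calls far exceeded the nominal FDR and it missed many of the differences put in. A call may therefore be false, and a gene that was not called may still differ. Nothing in the labels beyond the term biological replicate says how the cultures were separated. The p-values therefore rest on the spread between these arrays, whose number limits the precision. In the fit after the filter, that spread was a common SD of 0.34 for all tested probe sets. The own spread of a probe set did not enter its p-value in that fit.

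The members and the gene lists were chosen with earlier results of these data known. The genes named are the members, the labelled line's markers and the 5 closest to PMP22. From each list, the tested genes past FDR 5% and those with the largest difference in each direction are named. CAVIN1, EHD2, the markers named for their level against background and the motifs were added after values were seen. Promoter windows come from RefSeq (GRCh38.p14), with the 50 bases after the start left out. The protein sequences of the members were not analysed here. Single values of some list genes are not reported here. Alternatives were A03 added back, each array left out, array weights, 3 other filter or variance settings and their combination, renormalization, a floor at background (2.99), probe sets averaged per gene and FDR 10%.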

Additional observations from a re-analysis of the deposited data

Results flagged for a closer look

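On A03, an MCF10.AT1 array outside the comparison, 3 of the 8 genes (EMP3, CAV1 and FLOT2) read above that array's own background, at 4.55, 4.07 and 3.83, and the other 5 read below it.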

How the results depend on the processing

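PMP22, chosen for its lower values in MCF10.AT1-R, had log2 differences from -3.20 to -2.63 when each array was left out in turn. The difference was -2.97 after renormalization and -1.18 with A03 added back. Filter, variance and FDR settings cannot change a log2 difference, and none was taken from the fit with array weights. The background floor and averaged probe sets did not alter those of PMP22, EMP1, EMP3 and CAV2. With A03 added back EMP2 (1.99), EMP3 (0.87), FLOT1 (0.45) and FLOT2 (0.067) turned to higher, while EMP1, CAV1 and CAV2 moved up to 2.13, 1.68 and 1.56, by way of the low values of A03. EMP3 was lower with each array left out (-0.93 to -0.82) and after renormalization (-0.91). It passed FDR 5% with the trend option (-0.88, adjusted p = 7.49e-17 in limma) and with the low expression filter and the trend option (-0.88, adjusted p = 8.41e-05). Its adjusted p in limma was between 0.057 and 0.817 under the other alternatives. Near 0, CAV1 turned to -0.11 without A01 and to -0.029 after renormalization, FLOT1 to 0.19 without B03 and FLOT2 to 0.018 without B04. With each array left out in turn, EMP2 ranged from -0.21 to -0.086, CAV1 from -0.11 to 0.13, FLOT1 from -0.53 to 0.19 and FLOT2 from -0.37 to 0.018. EMP1 and CAV2 stayed higher with A03 added back, with each array left out and after renormalization.

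Of the genes other than PMP22, 1 passed under each of the 2 trend settings and 0 under the others. Of the claudin-like relatives, 1 passed with array weights, both trend settings, the background floor, averaged probe sets and FDR 10%. Of the SPFH relatives 1 passed under both trend settings, and of the MARVEL proteins 1 with the low expression filter and the trend option. Of the basal epithelial markers, 5 to 8 passed under every alternative but A03 added back, with 1. Over all probe sets, 620 passed as reported, 26 with A03 added back, 314 without A01, 271 without A02, 177 without a filter, 182 with a filter on low expression only, 1377 with the trend option, 1086 with both of these and 272 with the floor. The causes were not tested. No paired analysis was possible because the array names carry no replicate number of the labels.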
